A study of Mus musculus with 12 samples.

Results

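The genes described here are 10 members of the Notch pathway: the ligands Jag1, Jag2, Dll1 and Dll4, the receptors Notch1 and Notch2, and Hes1, Hey1, Nrarp and Dtx1, which are transcribed when the pathway is active. They were taken by gene name from the annotation inside the array files, which gave 12 probes of 39429 that are not controls, and 10 of 31131 gene names. Notch1 and Notch2 had 2 probes each and the other genes 1. The 10 genes were chosen by their measured log2 levels in the 4 groups on these same arrays, so their levels and differences are given as a description with no test.

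The study asked how hematopoietic stem and progenitor cells that have left the marrow differ from those that stay there. LSK cells (lineage-negative, Sca-1-positive, Kit-positive), the marrow fraction that contains the stem cells, were sorted from male DBA2/J mice after red cell removal and enrichment for Kit-positive cells. RNA was amplified, labelled with Cy5 and hybridised to 1-colour Agilent arrays, 3 arrays in each of 4 groups. The reference group was marrow LSK cells of mice injected with PBS (PBS marrow). In the other 3 groups the cells came from peripheral blood after a mobilizing treatment. G-CSF, a cytokine that mobilizes progenitors over days, was given in 9 injections over 5 days. AMD3100, a small-molecule blocker of the chemokine receptor CXCR4, was given 1 hour before collection. The third treatment was CWHM-823+tGro-b, an inhibitor of the integrin VLA-4 together with a truncated form of the CXCR2 ligand Gro-beta, for which no time is given in the sources used here. No group holds blood cells of mice without a mobilizing agent or marrow cells of treated mice, so compartment and treatment cannot be told apart in any comparison with marrow, and agent and time cannot be told apart between the blood groups. Separate or pooled mice are not named in the labels, so the spread between arrays may be technical in part.

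The arrays lay on 3 slides with 1 array of each group per slide, and replicate numbers follow the slides. The share of probes above background per array was 70.8% to 83.4%, and array brightness, taken as the 75th percentile signal, was 1146 to 2724. It was lowest in the AMD3100 group (1146 to 1581). The brightest array was in the G-CSF group (2188 to 2724), which overlapped marrow (1647 to 2476). All 8 LSK markers looked at, among them Kit and Ly6a, the gene for Sca-1, were above background on all 12 arrays. On marrow array 3 the summed level of 9 neutrophil markers was 31.4 times the array's 75th percentile signal, while the other 11 arrays lay between 1.54 and 3.26; leaving that array out moved no difference of the 10 genes by more than the spread between arrays. Levels below are log2 signals relative to the 75th percentile of the array (0 is that percentile, -1 is 1 doubling below it), and a probe's level is compared only with its own level on other arrays. In cells sorted in bulk, fewer cells that express a gene and less RNA per cell cannot be told apart.

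Notch signalling works by contact. A Jagged or Delta-like ligand on one cell binds a Notch receptor on its neighbour, the receptor is cut first by ADAM proteases and then by gamma-secretase, and the freed intracellular part enters the nucleus, where it joins the DNA-binding protein RBPJ and a Mastermind co-activator and switches on genes such as the Hes and Hey repressors. In blood formation the pathway is best known for directing progenitors to the T lineage in the thymus and for the first appearance of stem cells in the embryo. In the marrow, endothelial and stromal cells carry ligands, and blood progenitors carry receptors.

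The RefSeq promoter table (GRCm38.p6, 250 bases before to 50 after each transcription start) held 9 windows for 8 of the 10 genes, with none matched for Hes1 or Hey1. The letters CACGCG, those of the class C site that HES and HEY repressors can bind, were found on either strand in 6 of the 9 windows, those of 6 genes. The same letters occurred in 9.27% of the 32851 windows in the table. The member windows were rich in G and C, with a median of 62.7% and a range of 55.7% to 86%, against a median of 52.7% over all windows and 65.3% over those that hold the letters. This motif was chosen after the windows had been seen, so the share is a description. The matches are shown because the genes named as pathway members include both the ligands and receptors and the repressors whose site this is. The capitals mark CACGCG or, on the other strand, CGCGTG, and each line gives the gene, its position and strand, and the bases in the direction of transcription.

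Dll4, chr2:119325577-119325606, plus strand: ctgctcgccgggCACGCGcagagctggaag
Notch2, chr3:98013484-98013513, plus strand: gaggcggaaggaCACGCGggccgcccagcc
Dtx1, chr5:120711729-120711758, minus strand: gactcggtgactCGCGTGtcacagcggctg
Jag2, chr12:112929460-112929489, minus strand: cggcgatgcgggCACGCGgctggggacgcc
Dll1, chr17:15376983-15377012, minus strand: cttaatgacagcCACGCGaacgacacacac

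The match in Jag2 lies just after the transcription start, at base 19, and those of the other lines before it. Jag1 held the letters in both orientations, and the 250 bases before its start (GRCm38.p6, chr2:137116521-137116770, minus strand) are given whole to show both.

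Jag1: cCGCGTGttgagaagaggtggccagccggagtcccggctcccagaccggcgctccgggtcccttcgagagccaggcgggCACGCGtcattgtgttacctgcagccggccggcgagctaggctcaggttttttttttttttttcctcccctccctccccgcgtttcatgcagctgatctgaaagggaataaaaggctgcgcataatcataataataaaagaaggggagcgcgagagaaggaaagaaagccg

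TGGGAA, the core of the RBPJ site, was looked for on both strands in the same windows. It was present in 0 of the 9 member windows and in 25.6% of all windows, so it overlapped no CACGCG match there; this says only that these letters are not in these stretches.

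Jag1 encodes Jagged1, a ligand that endothelial and stromal cells of the marrow present to stem cells. In PBS marrow its level was -5.35, -4.73 and -4.75 on the 3 arrays, none of them well above background. In G-CSF blood it was -2.22, -2.75 and -1.50, in AMD3100 blood -4.33, -4.99 and -4.27 with none above background, and in CWHM-823+tGro-b blood -3.80, -3.59 and -3.50. By measured signal, all 3 G-CSF arrays were higher than all 9 others, the CWHM-823+tGro-b arrays came next with no overlap on either side, and marrow and AMD3100 arrays overlapped at the dim end. Because marrow and AMD3100 were not well above background, only a bound on the difference of group means is given. By it mean Jag1 was at least 3.86-fold higher in G-CSF blood than in marrow. The measured group means of -2.16 ± 0.63 and -4.94 ± 0.35 (SD, n = 3 each) differed by 2.79 ± 0.34 (SE) on the log2 scale. The bound sets the bright group's mean against the mean over the dim arrays of, on each, the higher of the dimmest signal well above background and the probe's own signal. It holds for means in this scaling and does not take in the spread between arrays. By the same rule mean Jag1 was at least 2.80-fold higher in G-CSF than in AMD3100 blood (measured difference 2.37), and at least 1.39-fold higher in CWHM-823+tGro-b blood than in marrow (1.31). For CWHM-823+tGro-b against AMD3100 blood the rule gave 1.01-fold. There the dimmest signal well above background on AMD3100 array 1, -3.35, lay above all 3 CWHM-823+tGro-b levels, so no minimum fold is claimed. Between the treatments in which Jag1 was measured on every array, G-CSF was above CWHM-823+tGro-b by 1.47 ± 0.34 (SE), with 1.58, 0.83 and 2.00 on the 3 slides. With a normexp background correction, which adds an offset and so compresses dim probes, the difference between G-CSF blood and marrow was 1.13 in place of 2.79.

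The values of Jag1 on the arrays were set beside endothelial markers, since those cells carry this ligand. Of 12 such markers, 9 were above background on all 12 arrays, among them Pecam1, Kdr and Tek, which progenitors also express. Sox17 was above background on none and Cdh5 on 2 arrays. The summed level of the list, as multiples of the 75th percentile signal, was 13.7 to 19.5 in marrow, 16.9 to 19.4 in G-CSF blood, 11.2 to 12.5 in AMD3100 blood and 14.1 to 18.7 in CWHM-823+tGro-b blood. Of 9 stromal markers 4 were above background on all arrays and Lum on none. Their sums were 3.24 to 3.51 in marrow, 2.80 to 2.83 in G-CSF blood, 3.03 to 3.51 in AMD3100 blood and 2.78 to 2.92 in CWHM-823+tGro-b blood. The 4 did not move as one. In G-CSF blood Pdgfrb was higher than in marrow (0.10 to 0.43 against -1.33 to -0.62) and Col1a2 lower (-1.27 to -0.51 against 0.35 to 0.48), while Cxcl12 and Col3a1 overlapped. The part of such cells in the Jag1 levels was not tested.

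**Figure D1:**
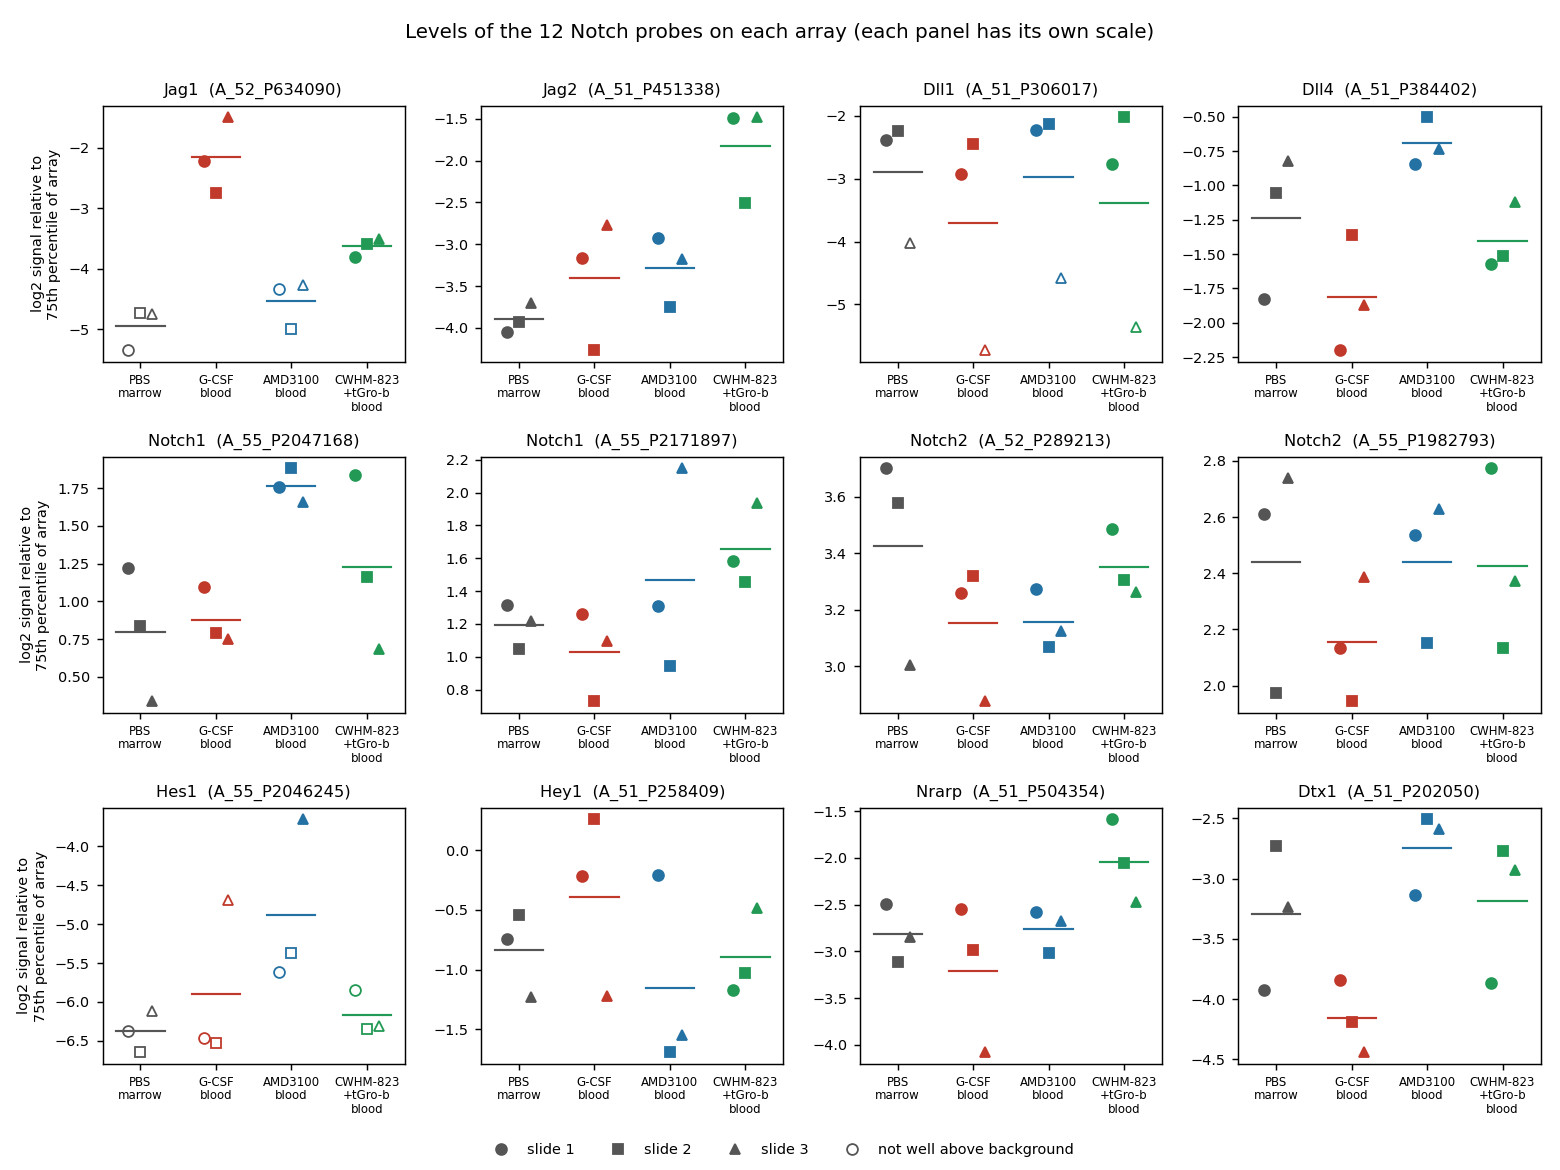
Level of each of the 12 probes (vertical axis, log2 signal relative to the array's 75th percentile) on the 3 arrays of each group (horizontal axis), with the group mean as a line, the slide as the symbol and open symbols where the probe was not well above background. Jag1 is highest on the 3 G-CSF arrays (-2.75 to -1.50), Jag2 and Nrarp on the CWHM-823+tGro-b arrays, and Dll1 and Hes1 have open symbols in every group.

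Jag2, the second Jagged ligand, was above background on all 12 arrays and was highest in another blood group than Jag1. It read -4.05, -3.93 and -3.70 in PBS marrow, -3.17, -4.27 and -2.77 in G-CSF blood, -2.93, -3.75 and -3.17 in AMD3100 blood, and -1.49, -2.51 and -1.48 in CWHM-823+tGro-b blood. The 3 CWHM-823+tGro-b arrays were the highest of the 12, and the other 3 groups overlapped one another. The mean of -1.83 ± 0.59 (SD, n = 3) stood above the marrow mean of -3.89 ± 0.17 by 2.07 ± 0.41 (SE), a 4.2-fold difference, with 2.56, 1.42 and 2.22 on the 3 slides. It stood above AMD3100 blood by 1.46 ± 0.41, and G-CSF blood lay below it by 1.58 (SE 0.41), 2.98-fold. With normexp the difference between CWHM-823+tGro-b blood and marrow was 1.10. The marrow levels lay close to the dimmest signals well above background on those arrays, -4.07, -4.41 and -3.84. The size of the fold from marrow is therefore uncertain. Jag1 and Jag2 thus had their highest levels in different blood groups: slide by slide, G-CSF minus CWHM-823+tGro-b was positive on 3 of 3 slides for Jag1 and was -1.68, -1.76 and -1.28 for Jag2.

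The group with the highest Jag2 level also had the highest erythroid marker sum. Of 8 erythroid markers, 4 were above background on all arrays, and their summed level was 10.5 to 19.0 in CWHM-823+tGro-b blood, 7.25 to 7.62 in G-CSF blood, 2.54 to 5.52 in marrow and 1.92 to 3.00 in AMD3100 blood. The markers did not move as one. Most of the sum in CWHM-823+tGro-b blood was 1 globin gene, at a log2 level of 3.12 to 3.85 there and -1.39 to -0.05 in marrow. Alas2, above background on 9 of the 12 arrays, was also higher, at -2.76 to -1.45 against -3.71 to -3.33 in marrow. Epor was lower than in marrow on all 3 arrays, and Klf1, Car1, Rhag and Hbb-b1 overlapped marrow. B cell markers, 5 of 8 above background on all arrays, had sums of 6.96 to 10.7 in CWHM-823+tGro-b blood, 7.50 to 8.72 in AMD3100 blood, 4.43 to 4.99 in marrow and 4.52 to 4.88 in G-CSF blood. The part of such cells in the level of Jag2 was not tested.

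Dll4 encodes the Delta-like ligand that thymic epithelium uses to drive T cell commitment and that sprouting vessels express. Its levels were -1.83, -1.06 and -0.83 in marrow and -2.20, -1.36 and -1.87 in G-CSF blood. In AMD3100 blood they were -0.84, -0.51 and -0.73, and in CWHM-823+tGro-b blood -1.57, -1.51 and -1.12. AMD3100 arrays were above all arrays of the other 2 blood groups and overlapped marrow only through marrow array 3. G-CSF blood (-1.81 ± 0.43) was below AMD3100 blood (-0.69 ± 0.17; SD, n = 3 each) by 1.12 (SE 0.31), or 2.17-fold, and by 1.36, 0.85 and 1.14 on the slides in turn. CWHM-823+tGro-b blood was 1.63-fold lower than AMD3100 blood. Each blood group overlapped marrow.

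Dll1, another Delta-like ligand, could not be compared across the groups. On slides 1 and 2 it read -2.39 and -2.24 in marrow, -2.92 and -2.45 in G-CSF blood, -2.23 and -2.13 in AMD3100 blood and -2.77 and -2.02 in CWHM-823+tGro-b blood, all well above background. On slide 3 the same probe read -4.03, -5.73, -4.58 and -5.36 in those groups, none of them well above background. The drop went with the slide and not with a group. The probe is printed 10 times per array, and on slides 1 and 2 all kept spots (8 to 10 per array) were above background. On slide 3 these were 3 of 10 in marrow and 0 of 10 in each blood group, and the SD between spots of an array was 0.57 to 0.80 against 0.09 to 0.22 on the other slides. On slides 1 and 2 the G-CSF array was the lowest of its slide. Dll1 did not pass the filter that asks for a group with all arrays above background.

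**Figure D2:**
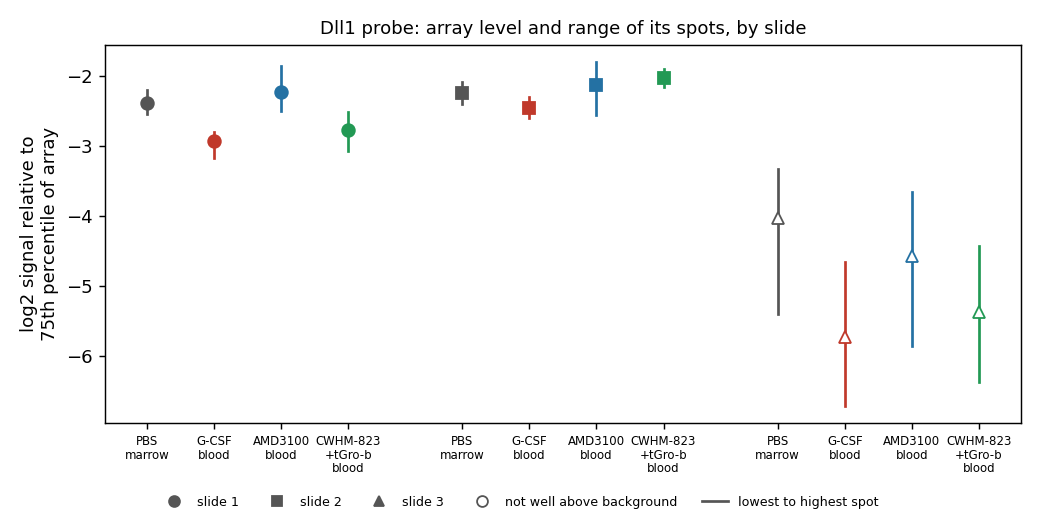
Level of the Dll1 probe on each array (vertical axis, log2 signal relative to the array's 75th percentile; symbols) and the lowest to highest of its spots (bars), arranged by slide and group, with open symbols where it was not well above background. On slides 1 and 2 the spots of an array lie close together and array levels run from -2.92 to -2.02, and on slide 3 all 4 arrays are lower, from -5.73 to -4.03, with wide bars.

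Notch1, the receptor needed for T cell commitment, was above background on every array by both probes, but the probes ordered the groups differently. The sequence of the probe with the higher mean, A_55_P2171897 (mm9, chr2:26319440-26319499, minus strand), and of 1 Notch2 probe, A_55_P1982793 (mm9, chr3:97951233-97951292, plus strand), are shown to identify the stretch of the receptor that was read. The exon structure of mm9 was not used here, so no exon is named.

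Notch1: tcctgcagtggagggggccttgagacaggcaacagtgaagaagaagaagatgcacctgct
Notch2: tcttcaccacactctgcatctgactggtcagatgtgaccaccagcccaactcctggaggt

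By that Notch1 probe the levels were 1.31, 1.05 and 1.22 in marrow, 1.26, 0.73 and 1.10 in G-CSF blood, 1.31, 0.94 and 2.15 in AMD3100 blood, and 1.58, 1.45 and 1.94 in CWHM-823+tGro-b blood. CWHM-823+tGro-b blood was above marrow by 0.46 ± 0.31 (SE) and above G-CSF blood by 1.55-fold, with no overlap in either case, while AMD3100 arrays spread from 0.94 to 2.15. The other probe, A_55_P2047168 (mm9, chr2:26314630-26314689), read 1.22, 0.84 and 0.34 in marrow, 1.10, 0.79 and 0.75 in G-CSF blood, 1.76, 1.88 and 1.66 in AMD3100 blood, and 1.84, 1.16 and 0.68 in CWHM-823+tGro-b blood. There AMD3100 blood was above marrow by 0.97 ± 0.32 (SE), 1.96-fold, and above G-CSF blood by 1.85-fold, each with no overlap, and CWHM-823+tGro-b blood overlapped all groups. No pair of groups was apart on both probes. T cell markers, of which 5 of 10 were above background on all arrays, had their highest sums in AMD3100 blood, 13.7 to 17.2, against 9.13 to 13.0 in marrow, 6.16 to 11.2 in G-CSF blood and 8.27 to 12.8 in CWHM-823+tGro-b blood. Their part in the Notch1 level was not tested.

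Notch2, the receptor that supports marginal zone B cells and early regeneration of stem cells, showed no separation. By its brighter probe, A_52_P289213, it read 3.70, 3.58 and 3.00 in marrow, 3.26, 3.32 and 2.88 in G-CSF blood, 3.27, 3.07 and 3.12 in AMD3100 blood, and 3.48, 3.30 and 3.26 in CWHM-823+tGro-b blood. All 4 groups lay within 2.88 and 3.70. The probe printed above read 2.61, 1.98 and 2.74 in marrow, 2.13, 1.94 and 2.39 in G-CSF blood, 2.54, 2.15 and 2.63 in AMD3100 blood, and 2.77, 2.13 and 2.37 in CWHM-823+tGro-b blood. On both probes the groups overlapped in all 6 comparisons, with differences of means between -0.29 and 0.19 and an SE of 0.24 for the first probe and 0.28 for the second.

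Of the target genes, Nrarp, a feedback inhibitor that binds the intracellular part of Notch, separated 1 group. It was at -2.49, -3.12 and -2.85 in marrow, -2.55, -2.99 and -4.08 in G-CSF blood, -2.58, -3.02 and -2.68 in AMD3100 blood, and -1.59, -2.06 and -2.47 in CWHM-823+tGro-b blood. The CWHM-823+tGro-b arrays were the 3 highest of the 12, and the lowest of them (-2.47) lay just above the highest marrow array (-2.49). Their mean was above marrow by 0.78 ± 0.38 (SE), 1.72-fold, above AMD3100 blood by 0.72 and above G-CSF blood by 2.24-fold, and slide 3 gave the smallest difference from marrow, 0.38. The erythroid and B cell marker sums of this group are those given above for Jag2, and their part in the Nrarp level was not tested either.

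Dtx1, a ubiquitin ligase of the Deltex family that is induced by Notch in lymphoid progenitors, was lowest in G-CSF blood. It read -3.92, -2.73 and -3.24 in marrow, -3.84, -4.19 and -4.44 in G-CSF blood, -3.13, -2.51 and -2.59 in AMD3100 blood, and -3.86, -2.77 and -2.93 in CWHM-823+tGro-b blood. G-CSF arrays lay below all AMD3100 arrays and overlapped marrow and CWHM-823+tGro-b blood through the first array of each. The difference from AMD3100 blood was -1.41 (SE 0.37), 2.66-fold, with -0.71, -1.68 and -1.85 on the slides. It was -0.82 after quantile normalization, -0.58 with normexp and -0.82 in the authors' normalized values. The levels on G-CSF arrays 2 and 3 lay close to the dimmest signals well above background there, -4.42 and -4.60. The size of the fold is therefore uncertain. Between G-CSF and AMD3100 blood the B cell and T cell marker sums given above were also lower in G-CSF blood with no overlap. Both sums overlapped between marrow and G-CSF blood, as the Dtx1 levels did. Dendritic cell markers, 3 of 8 above background on all arrays and Xcr1 on none, had sums of 26.0 to 35.9 in G-CSF blood, 48.2 to 66.4 in AMD3100 blood, 40.8 to 50.7 in marrow and 40.7 to 65.1 in CWHM-823+tGro-b blood. Most of the sum was 1 gene, Siglech, at 4.37 to 5.01 in G-CSF blood and 4.69 to 5.16 in marrow, which overlap. Flt3, also among the LSK markers, Cd74, H2-Aa and H2-Eb1 were lower in G-CSF blood than in marrow or AMD3100 blood with no overlap. The part of such cells in the Dtx1 level was not tested.

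Hey1, a repressor induced by Notch, overlapped in all comparisons. Its levels were -0.74, -0.54 and -1.23 in marrow, -0.22, 0.26 and -1.22 in G-CSF blood, -0.21, -1.69 and -1.55 in AMD3100 blood, and -1.17, -1.03 and -0.48 in CWHM-823+tGro-b blood. The AMD3100 arrays spanned -1.69 to -0.21 and the G-CSF arrays -1.22 to 0.26, each wider than the largest difference between group means, 0.76 between G-CSF and AMD3100 blood.

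Hes1, the best known target of Notch and a repressor that holds progenitors undifferentiated, was well above background on 1 of 12 arrays, AMD3100 array 3, at -3.66. The other arrays read between -6.65 and -4.69. Its probe has 26.7% G and C, the lowest of the 12 probes, and no statement on Hes1 differences can be made at this signal.

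**Figure D3:**
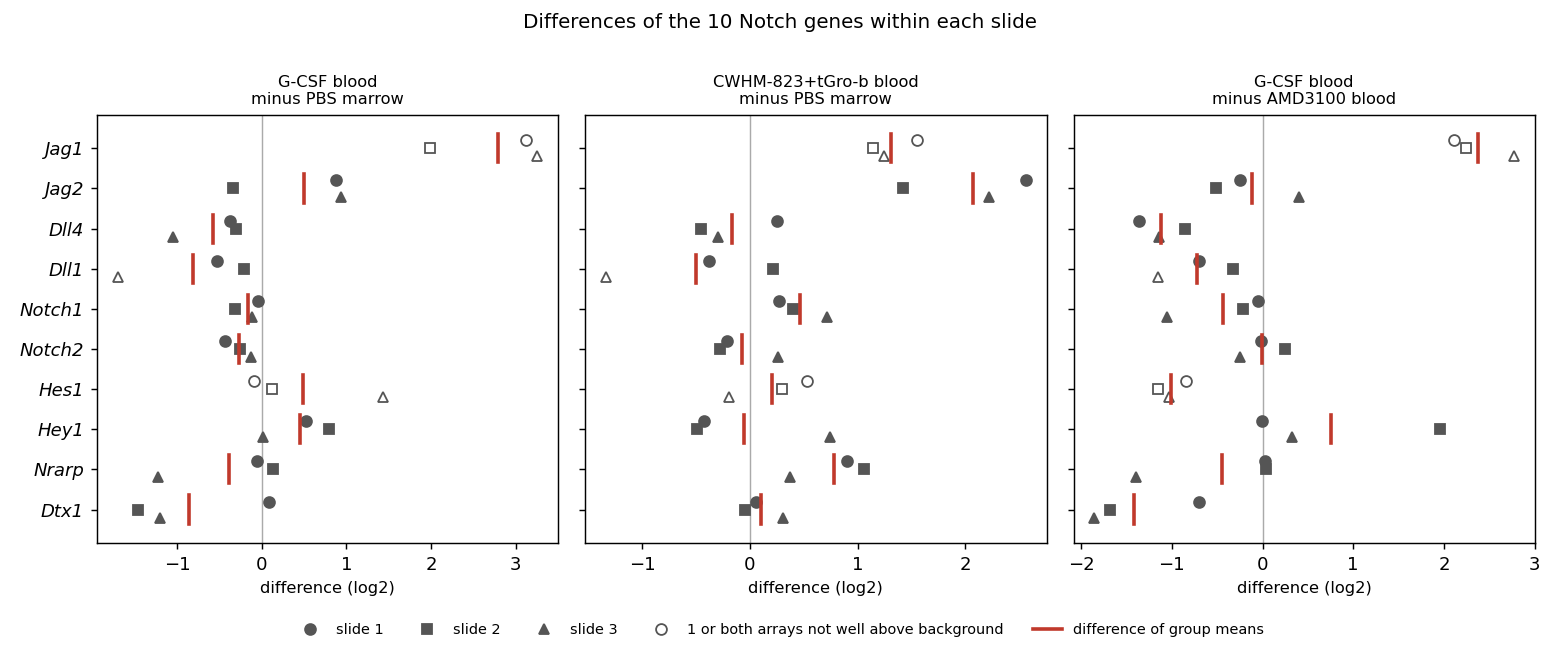
Differences of the 10 genes in 3 comparisons (horizontal axis, log2; each gene by its probe with the highest mean), 1 symbol per slide and a red bar at the difference of group means, with open symbols where 1 or both arrays were not well above background. Jag1 is right of 0 on all slides in each comparison, Jag2 (1.42 to 2.56) and Nrarp (0.38 to 1.06) are right of 0 in the comparison of CWHM-823+tGro-b blood with marrow, and Dll4 and Dtx1 are left of 0 on all slides between G-CSF and AMD3100 blood.

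Of the 10 genes, 8 passed the filter on dim probes and Dll1 and Hes1 did not; Jag1 passed only through the groups in which it is high. No test is given for them. Groups did not overlap for 4 of the 8 in CWHM-823+tGro-b blood against marrow, beside 9.72% of all genes, for 4 between G-CSF and CWHM-823+tGro-b blood beside 13.2%, and for 4 between CWHM-823+tGro-b and AMD3100 blood beside 24.2%. They did not overlap for 1 of the 8 in G-CSF blood against marrow beside 25.4%, for 0 in AMD3100 blood against marrow beside 26.5%, and for 3 between G-CSF and AMD3100 blood beside 47.6%. Nothing is read from these counts, since the genes were chosen on the same levels.

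Beyond the 10 genes, a list of 54 other genes of the pathway was followed, of which 49 passed the filter and entered the linear model fitted to all 23795 genes, 4 did not pass (Dner, Hey2, Heyl and Il2ra) and Aph1c was not matched to a probe. Between G-CSF and AMD3100 blood 10 of the 49 rose and 2 fell, where 31.1% of all genes passed, 12.6% higher and 18.4% lower. Here and below, rose and fell give the direction of a difference between the named groups, not which group changed. The median difference of the list was 0.44, and that of all genes -0.37. This comparison coincides with the lowest and highest array signals given above, and the part of signal in it was not tested. The split of all genes moved with the scaling: 3008 were higher and 4382 lower as reported, 3316 and 2605 after quantile normalization, 2537 and 2869 with normexp, and 3058 and 2538 in the authors' normalized values. With quantile normalization the list had 10 higher and 2 lower. The count moved with single arrays: leaving out G-CSF array 1 gave 3, leaving out G-CSF array 3 or AMD3100 array 1 gave 4, AMD3100 array 2 gave 7, and G-CSF array 2 gave 16. Calls over all genes moved too, from 7390 with all arrays to 1370, 2103, 2854, 2567 and 10237 in that order. Dlk1 and Lfng passed whichever array was left out. With the slide as a block 29 of the 49 passed, 21 higher and 8 lower, beside 62.6% of all genes.

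Among receptors and ligands, Dlk1 stood apart. It encodes a non-canonical, imprinted relative of the Delta ligands that lacks their receptor-binding domain and whose expression in adult tissues is narrow. Its level was 2.35, 2.13 and 2.06 in G-CSF blood, against -1.83, -1.41 and -1.02 in marrow, -0.99, -0.51 and -0.87 in AMD3100 blood, and -1.20, -1.06 and -1.30 in CWHM-823+tGro-b blood. All G-CSF arrays were far above the 9 others. It rose in G-CSF blood 12.1-fold over marrow (log2 3.60 ± 0.25 SE, limma adjusted p = 3.3e-05), 7.84-fold over AMD3100 blood (adjusted p = 0.000235) and 10.3-fold over CWHM-823+tGro-b blood, in each case on 3 of 3 slides, and its second probe gave 3.75, 3.56 and 3.53 on the log2 scale. Dlk1 was the only one of the 49 called in G-CSF blood against marrow or against CWHM-823+tGro-b blood. Dlk2, its close relative, fell by 0.93 in G-CSF relative to AMD3100 blood (SE 0.31, limma adjusted p = 0.0438), and leaving out any 1 of 8 of the 12 arrays ended the call, with adjusted p up to 0.163 (without G-CSF array 1). Notch3, Notch4 and Dll3 passed in none of the 6 comparisons. Notch3 had group means of -2.81 ± 0.03 in marrow, -2.01 ± 0.63 in G-CSF blood, -2.74 ± 0.90 in AMD3100 blood and -2.24 ± 0.49 in CWHM-823+tGro-b blood (SD, n = 3 each). Notch4 means ran from -2.28 (G-CSF) to -1.58 (AMD3100), and Dll3 means from -2.21 to -1.86.

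Of 5 enzymes that put sugars on the receptor 3 rose in G-CSF relative to AMD3100 blood, where 12.6% of all genes did. Lfng, the Fringe enzyme that makes Notch1 more responsive to Delta-like than to Jagged ligands, was at 0.73, 0.22 and 0.69 in G-CSF blood, -1.15, -1.85 and -1.26 in AMD3100 blood, -0.16, -0.63 and -0.07 in marrow, and -0.03, -0.66 and -1.23 in CWHM-823+tGro-b blood. It was 3.91-fold higher in G-CSF than in AMD3100 blood (log2 1.97 ± 0.33 SE, limma adjusted p = 0.0061), on 3 of 3 slides. Poglut1, which adds O-glucose, rose by 1.08 ± 0.30 (adjusted p = 0.0249). Mfng, a second Fringe enzyme, was higher by 0.70 ± 0.22 on its brighter probe, while its difference between G-CSF blood and marrow was -0.18 ± 0.22. Its other probe gave 0.56 and did not pass (limma adjusted p over all probes 0.106). The brighter one did not pass after quantile normalization (limma adjusted p = 0.118) or in the authors' normalized values (0.119), nor without G-CSF array 1 (0.13). The third Fringe gene, Rfng, differed by 0.48 ± 0.23 and did not pass (limma adjusted p = 0.116, or 0.0272 with the slide as a block), and its other probe gave 0.02. Pofut1, which adds the O-fucose that Fringe enzymes extend, differed by 0.11 on its brighter probe and by 1.07 on its other one. Against marrow, AMD3100 blood had lower values of Lfng (-1.13 ± 0.33, adjusted p = 0.109) and Mfng (-0.88 ± 0.22, adjusted p = 0.0774), which did not pass; with the slide as a block limma gave adjusted p of 0.0267 and 0.0135.

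**Figure D4:**
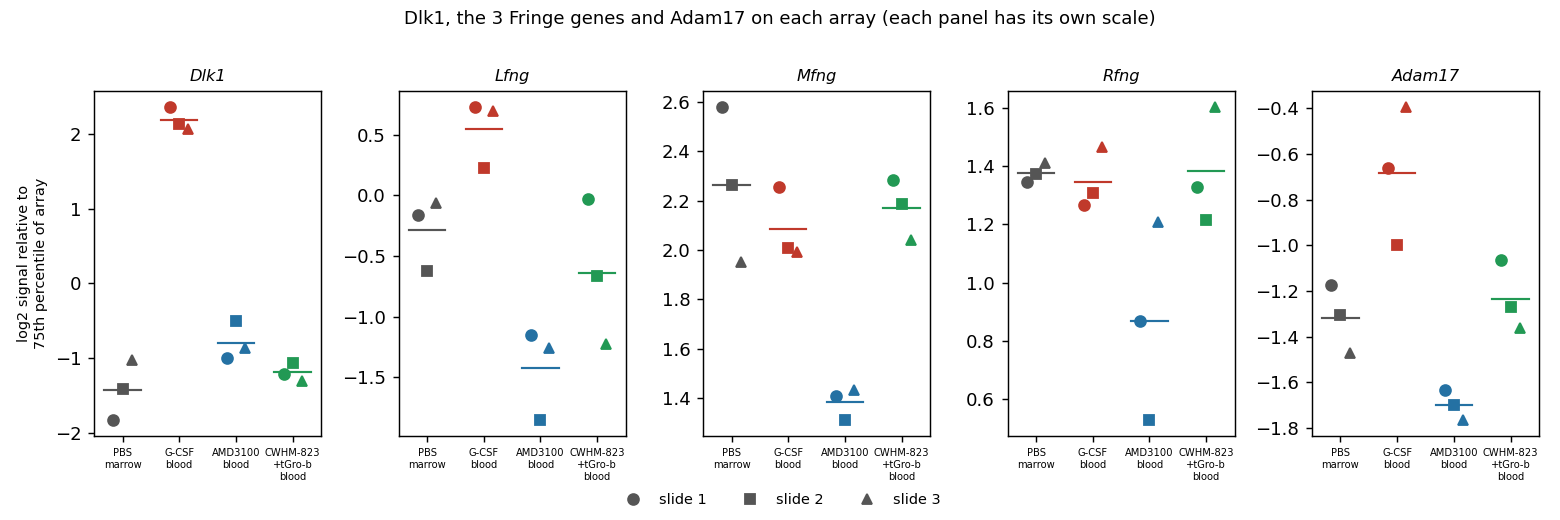
Levels of Dlk1, the 3 Fringe genes Lfng, Mfng and Rfng, and the protease gene Adam17 on each array (vertical axis, log2 signal relative to the array's 75th percentile; horizontal axis, group), with the slide as the symbol and the group mean as a line. Dlk1 is at 2.06 to 2.35 on the G-CSF arrays and below -0.5 on all others, and Lfng, Mfng and Adam17 are lowest on the AMD3100 arrays by group mean.

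Of the genes for receptor cleavage, 2 of 8 rose in G-CSF relative to AMD3100 blood, against the same 12.6% of all genes. Adam17, a protease that can cut the receptor outside the cell, had means of -0.68 ± 0.30 in G-CSF blood and -1.70 ± 0.07 in AMD3100 blood (SD, n = 3 each), with no overlap, a difference of 1.02 ± 0.22 (SE, limma adjusted p = 0.0122) that its second probe also gave (1.26). Psenen, a subunit of gamma-secretase, rose by 0.79 ± 0.23 (adjusted p = 0.0273), with 0.82 on its second probe. The subunits Psen2, Ncstn, Aph1a and Aph1b differed by 0.48, 0.33, 0.96 and -0.37 and did not pass, and the second Aph1a probe gave 0.50. With the slide as a block Psen2 and Aph1a passed (limma adjusted p of 0.0414 and 0.00789). Of the 4 genes that act on ligand endocytosis none passed in that comparison with limma, 2 with an unadjusted p under 0.05, and with the slide as a block Mib1, Neurl1a and Neurl1b did.

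In the nuclear complex 2 of 12 genes rose, near the 12.6% of all genes. Maml1, a Mastermind co-activator, was 2.95-fold higher in G-CSF than in AMD3100 blood (log2 1.56 ± 0.37, limma adjusted p = 0.0146), and Snw1, a splicing factor that binds the Notch complex, 1.84-fold higher (adjusted p = 0.0159). Rbpj, the DNA-binding partner itself, passed in none of the 6 comparisons by its brighter probe: its means were 0.51 ± 0.24 in marrow, 1.16 ± 0.28 in G-CSF blood, 0.72 ± 0.25 in AMD3100 blood and 0.73 ± 0.37 in CWHM-823+tGro-b blood. Its second probe gave 1.66 between G-CSF and AMD3100 blood (limma adjusted p over all probes 0.00933) where the brighter one gave 0.44, so the probes of Rbpj disagreed. The second probes of Pofut1, Kat2a, Cir1 and Neurl1a likewise passed in that comparison where the brighter ones did not.

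Among genes of turnover and inhibition, 2 of 9 rose, again beside 12.6% of all genes. Itch, a ubiquitin ligase that marks Notch for degradation, was 2.18-fold higher in G-CSF than in AMD3100 blood (limma adjusted p = 0.0149). Dtx2, a relative of Dtx1, passed too (limma adjusted p = 0.030), but it was well above background on only 1 of the 3 AMD3100 arrays, which read -5.50, -3.17 and -3.71 against -2.41, -2.79 and -2.16 in G-CSF blood, so no fold is given. Of the other targets 1 of 6 fell, near the 18.4% of all genes called lower. This was Hes7, a repressor of the somite clock, by 0.99 (SE 0.30, limma adjusted p = 0.0327; adjusted p = 0.0588 with normexp and 0.131 without G-CSF array 1). Myc, Gata3, Ccnd1, Hes5 and Ptcra, which Notch can induce in lymphoid cells, had differences of -0.12, -0.45, -0.46, -0.74 and -1.24 and did not pass; with the slide as a block Hes5 and Ptcra did (limma adjusted p of 0.0105 and 0.00318).

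**Figure D5:**
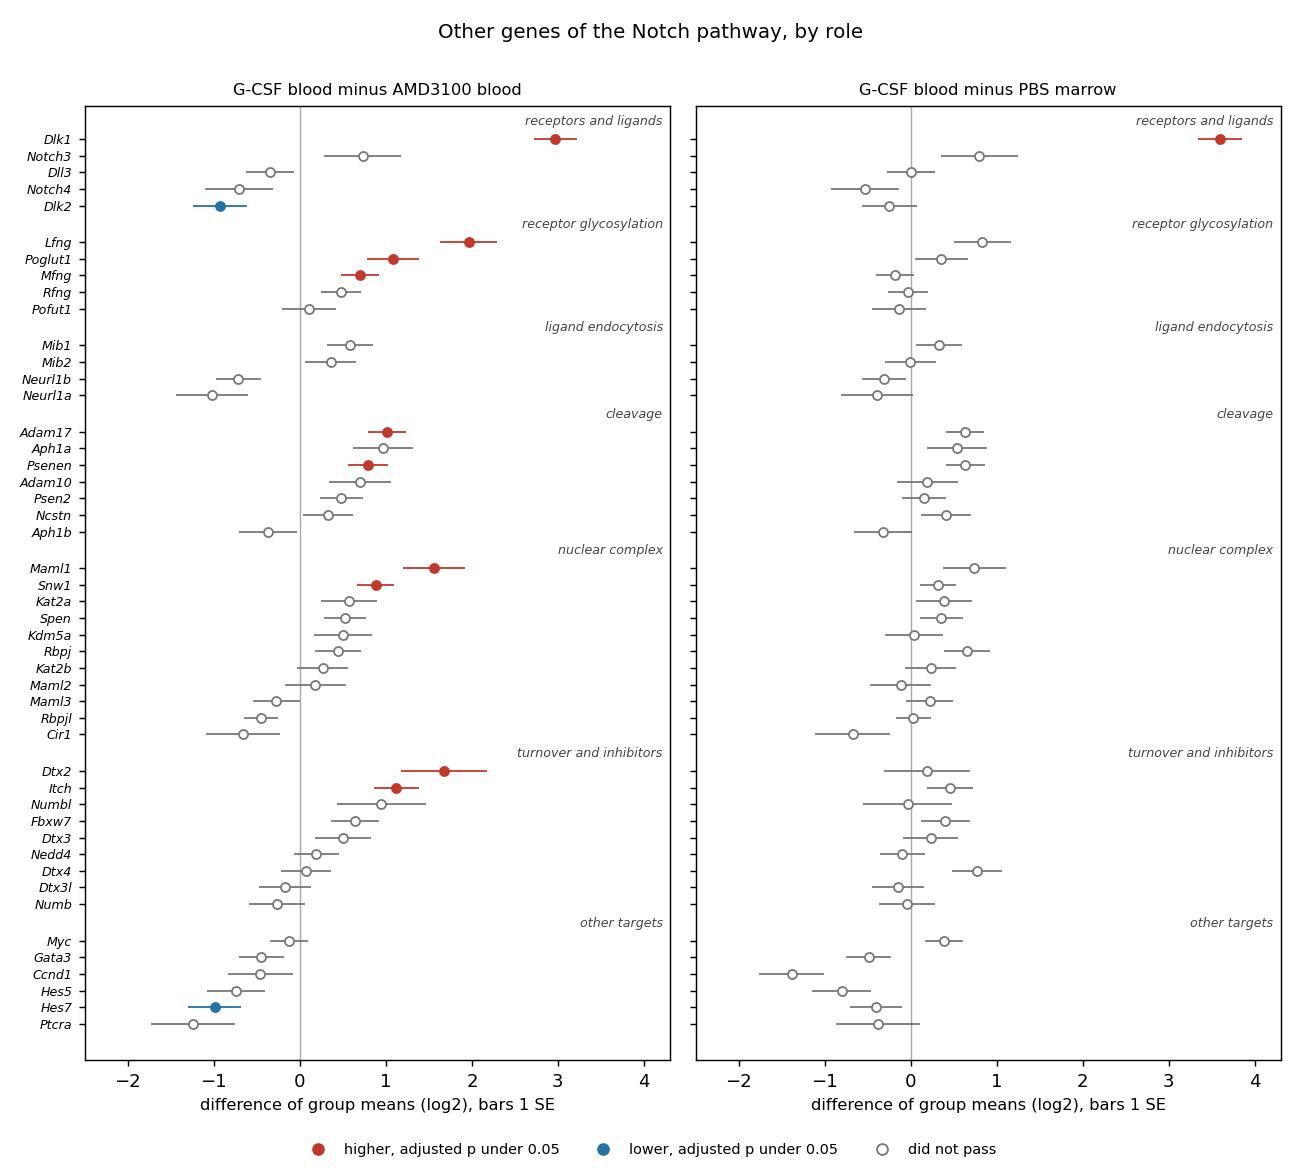
Difference of group means with 1 SE (horizontal axis, log2) for other pathway genes that passed the filter and are reported here, by role, between G-CSF and AMD3100 blood (left) and between G-CSF blood and PBS marrow (right); filled symbols passed at an adjusted p under 0.05. Filled symbols number 12 on the left, with Dlk1 and Lfng farthest right, and 1 on the right, Dlk1.

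In the other comparisons few of the 49 passed. In G-CSF blood against marrow Dlk1 alone did, beside 1.74% of all genes, with 8 at an unadjusted p under 0.05; with the slide as a block 7 did, Adam17, Dlk1, Dtx4 and Psenen higher and Ccnd1, Cir1 and Hes5 lower, beside 19.5% of all genes. In AMD3100 blood against marrow limma called 0, beside 1.42% of all genes, with 14 at an unadjusted p under 0.05, and 7 with the slide as a block, 2 of them higher, Myc and Ptcra, and 5 lower, among them Itch, Lfng, Mfng and Snw1, beside 13.5% of all genes. For CWHM-823+tGro-b blood the count was 0 against marrow, beside 0.37% of all genes, with 2 at an unadjusted p under 0.05, and 0 with the block beside 1.08%. Against AMD3100 blood it was 0, beside 0.147% of all genes, with 12 at an unadjusted p under 0.05 and 8 with the block, 6 of them higher, among them Itch, Maml1, Mfng, Psenen and Snw1, and 2 lower, Hes7 and Neurl1a. Over all genes 16.8% passed there with the block. Between G-CSF and CWHM-823+tGro-b blood Dlk1 alone passed, beside 0.626% of all genes, and alone with the block, beside 2.2%. These comparisons share groups, so their counts are not independent.

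The gene pattern most like that of Jag2, the member above background on all arrays whose group means spread most, was looked for over all genes. The 5 highest correlations over the 12 arrays were with an unnamed transcript (r = 0.92) and with Crem (0.91), a transcription factor induced by cyclic AMP, Myct1 (0.91), Itprip (0.90) and Arl4c (0.87). Crem had group means of -2.16 in marrow, -1.75 in G-CSF blood, -1.18 in AMD3100 blood and -0.14 in CWHM-823+tGro-b blood. Each of the 5 was lowest in marrow and highest in CWHM-823+tGro-b blood, as Jag2 was. The arrays share groups and slides, and these values are a description of likeness only.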

How the data were processed

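Total RNA of sorted LSK cells was amplified and hybridised in 1 colour, 12 arrays in 4 groups of 3. The authors deposited scanner output of Agilent Feature Extraction 11.5.1.1, per the submitters' processing notes, whose processed red signal is an intensity with background subtracted, per the file headers. The authors also deposited a table of normalized values. They were taken as intensities and put on the log2 scale here, and how they were normalized is not given in the sources used here.

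Each processed signal was divided by its array's 75th percentile over probes and put on the log2 scale, after outlier spots were left out and spots of a probe averaged. No spot was saturated. A probe entered the fit if some group had it well above background on all 3 arrays, and a gene is its probe with the highest mean (23795 genes). limma 3.58.1 in R 4.3.3 was fitted with 1 mean per group over all 12 arrays (8 residual and 3.81 prior degrees of freedom), Benjamini-Hochberg over all genes, calls at an adjusted p under 0.05. In simulated data for G-CSF blood against marrow (23795 genes), 8 of 100 genes changed by 1 on the log2 scale and 55 of 100 changed by 2 were recovered, with 2 unchanged genes called. The simulated arrays had independent noise with no slide effect, and only those genes changed. The figures may therefore not hold for the real arrays.

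The replicate number is the slide. Deviations from group means of the 18 same-numbered pairs correlated at 0.26 to 0.62, those of the 36 other pairs at -0.45 to 0.04, so the numbers pair the samples, and the model was also fitted with a term for the slide.

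The members, the pathway list and the markers were chosen with earlier results of these data known. Named beyond the members were Notch3, Notch4, Dll3 and Rbpj, and per comparison up to 4 called genes each way with the smallest p (8 where most were called). Dtx2, Mfng, Rfng, genes called only with the block, genes whose probes disagree, and genes that did not pass were named after their values were seen. Some genes of the lists are counted but not reported here by name.

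Alternatives were quantile normalization, normexp with an offset of 50, the authors' table, other filters on dim probes, an intensity trend with a robust prior, the mean of a gene's probes, and leaving out each array. Promoters are RefSeq's on GRCm38.p6; probe positions are mm9 as in the files.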

Additional observations from a re-analysis of the deposited data

How the results depend on the processing

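Counts of the 49 pathway genes changed most with the replicate block, which pairs the arrays by slide: 7 in G-CSF blood against marrow, 7 in AMD3100 blood against marrow, 29 between G-CSF and AMD3100 blood and 8 between CWHM-823+tGro-b and AMD3100 blood, against 1, 0, 12 and 0 without it. The share of all genes called rose too, to 19.5%, 13.5%, 62.6% and 16.8%, from 1.74%, 1.42%, 31.1% and 0.147% without the block. The block changed no other count by more than 1.5 times. An intensity trend with a robust prior gave 1 in AMD3100 blood against marrow. Leaving out 1 array at a time gave 1 to 2 in G-CSF blood against marrow (2 without AMD3100 array 2 or AMD3100 array 3) and 3 to 16 between G-CSF and AMD3100 blood, with Dlk1 and Lfng called each time. Over all genes the calls then ranged from 178 to 746 in the first comparison and from 1370 to 10237 in the second. Why these counts move was not tested; fewer arrays leave fewer residual degrees of freedom. Between G-CSF and AMD3100 blood the called genes overall turned from mostly lower to mostly higher after quantile normalization and in the authors' normalized values. Jag2 and Nrarp, whose groups overlapped between G-CSF and AMD3100 blood, changed sign there after quantile normalization, to 0.46 and 0.17. Of 60 member differences, 4 moved by more than the spread between arrays after quantile normalization and 11 with normexp; in the authors' normalized values this held for 2 of 48, and for none of 360 when 1 array was left out. The largest moves were of dim probes, Jag1, Jag2 and Dtx1. Dll1, Hes1 and, in 2 groups, Jag1 lie at background, which limits what can be said of them. Jag2 in marrow and Dtx1 in G-CSF blood lie close above it, which limits their folds. The 3 arrays a group limit every comparison.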
